A study of Mus musculus with 32 samples.

Results

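The genes described here are 29 genes of the synapse: 11 encode synaptic vesicle proteins, 4 encode plasma membrane SNAREs or complexins, 5 encode active zone proteins, 6 define the transmitter a neuron releases and 3 encode postsynaptic scaffolds. They were chosen by name, as rows of the gene table whose Ensembl identifier carries one of the listed symbols. All 29 were found among the 55938 genes of the table, and all 29 passed the filter on low counts in every comparison. The libraries came from lumbar spinal cord of Aldhl1l-CreER;Rpl22-HA mice, as the labels spell the genotype. In these mice Cre under the Aldh1l1 promoter, which is active in astrocytes, switches on an HA-tagged copy of the ribosomal protein Rpl22. Trap libraries (24) hold RNA pulled down with the tagged ribosomes, and Input libraries (8) hold RNA of the whole homogenate. Tissue of both sexes was taken without injury or at 3, 5 or 7 weeks after a fracture, which models complex regional pain syndrome. Each of the 8 combinations of sex and state had 3 Trap libraries and 1 Input library, numbered 1, and every group carries both transgenes. The labels do not tie libraries to separate animals, and p-values therefore measure the spread between these libraries, which may be technical.

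Synaptic vesicles store transmitter and fuse with the plasma membrane when calcium enters a nerve terminal. Fusion is driven by SNARE proteins, of which synaptobrevins (Vamp1, Vamp2) sit on the vesicle and syntaxin 1 and SNAP-25 (Stx1a, Snap25) on the target membrane, with synaptotagmin 1 (Syt1) as calcium sensor and complexins as regulators. In the spinal cord, most excitatory interneurons load glutamate with VGLUT2 (Slc17a6), while inhibitory neurons make GABA with GAD67 and GAD65 (Gad1, Gad2), recover glycine with GlyT2 (Slc6a5) and load either transmitter through VIAAT (Slc32a1). These genes are classical neuronal genes, and many of them are held silent outside neurons by the repressor REST, which binds a DNA element named RE1.

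Promoter windows of 300 bases from RefSeq (GRCm38.p6) were matched for 26 of the 29 genes, in 36 windows that run from 250 bases before a gene's start to 50 after it. Both strands were searched for a core of RE1 in a long form and in a form shorter by 1 base, which lies within it. The long form occurred in 0 of the 36 windows and in 12 of all 32851 windows (0.0365%). The short form occurred in 1 of the 36, that of Gad2, and in 17 of all windows (0.0518%). The first letters of the element, CAGCACC, occurred in windows of Dlg4, Sv2c, Syn1 and Unc13a (11.1% of the 36 windows) and in 7.14% of all windows. A GC box, GGGCGG, was present in 20 of the 36 windows (55.6%), against 35.7% of all. The Gad2 window is shown because it alone holds the short RE1 core (in capitals, first base at position -163), and the others because Syn1 and Syn2 are paralogs that differed in depletion and Gphn was the 1 member higher in the pull-down. Those 3 were chosen after their values were seen. Capitals mark CAGCACC in Syn1 (positions -230 and -176) and GC boxes in Syn2 (-37, -13 and 19) and Gphn (-90). A match describes the letters only and shows no binding.
Gad2, chr2:22622077-22622376, plus strand: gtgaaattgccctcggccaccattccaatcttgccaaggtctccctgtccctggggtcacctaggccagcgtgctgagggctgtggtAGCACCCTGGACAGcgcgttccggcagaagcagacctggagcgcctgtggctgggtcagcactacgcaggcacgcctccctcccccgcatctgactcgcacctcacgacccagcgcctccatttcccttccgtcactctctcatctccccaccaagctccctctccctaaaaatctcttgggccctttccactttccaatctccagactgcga
Syn1, chrX:20920869-20921168, minus strand: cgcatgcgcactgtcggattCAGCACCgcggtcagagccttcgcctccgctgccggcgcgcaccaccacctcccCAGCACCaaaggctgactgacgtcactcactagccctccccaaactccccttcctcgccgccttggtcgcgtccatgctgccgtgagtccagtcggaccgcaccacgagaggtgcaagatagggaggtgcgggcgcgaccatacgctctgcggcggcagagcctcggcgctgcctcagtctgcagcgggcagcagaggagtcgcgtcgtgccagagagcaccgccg
Syn2, chr6:115134652-115134951, plus strand: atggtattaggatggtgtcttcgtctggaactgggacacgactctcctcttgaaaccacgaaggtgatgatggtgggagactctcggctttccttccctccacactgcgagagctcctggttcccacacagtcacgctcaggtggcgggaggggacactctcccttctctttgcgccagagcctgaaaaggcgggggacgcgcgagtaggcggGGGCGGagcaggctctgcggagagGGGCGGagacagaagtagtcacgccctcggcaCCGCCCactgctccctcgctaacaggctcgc
Gphn, chr12:78226405-78226704, plus strand: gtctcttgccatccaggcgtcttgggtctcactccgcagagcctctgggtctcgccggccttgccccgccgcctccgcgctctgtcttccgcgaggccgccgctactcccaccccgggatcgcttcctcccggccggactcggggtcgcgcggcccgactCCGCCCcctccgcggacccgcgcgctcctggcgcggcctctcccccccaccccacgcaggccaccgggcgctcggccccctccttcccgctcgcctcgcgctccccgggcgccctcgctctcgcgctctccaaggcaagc
The Gphn window holds 42 CG dinucleotides, against 33 in Syn1, 21 in Syn2 and 14 in Gad2, and a median of 7 over all windows. A second Syn2 window holds 5. Among the other genes lower in Trap, windows of Bsn, Pclo and Sv2c hold 38, 35 and 32, and 1 window of Sv2b holds 0.

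Library totals ran from 17124034 to 23189228 estimated counts in Trap and from 17981133 to 22907909 in Input. Levels are given as CPM, a library's counts scaled to a common total, on one TMM scale over the 32 libraries. Astrocyte markers were higher in Trap for 15 of 15 genes, with a median log2 difference of 3.24. Markers of other cells were lower for 20 of 20 neuron genes outside the 29, 12 of 13 oligodendrocyte genes (Olig1 was higher), 12 of 12 microglia genes and 10 of 10 endothelial genes. The endothelial gene Emcn had 0 to 0.433 CPM in Trap and 0.897 to 2.64 CPM in Input. It passed the filter on low counts through its Input level, so its call carries little weight. The microglia genes Trem2 and Aif1 were also low in Trap, with medians of 0.415 and 0.503 CPM. Of 7 Schwann cell genes 2 were higher (Drp2 by 1.60 and Pmp2 by 1.44) and 3 lower. Mbp stands in both the oligodendrocyte and the Schwann cell list. Pmp2 had 0.109 to 1.01 CPM in Trap and 0.0356 to 0.426 CPM in Input. Its Trap level carried it past the filter on low counts, so its call carries little weight. Among Trap libraries, female 3 weeks replicate 3 stood apart, with 1627 CPM over the 29 genes together against 949 to 1305 CPM in the other 23, and with the lowest summed astrocyte markers (58238 CPM, against 62068 to 79454 CPM). Mitochondrial genes took 0.489% of its counts, against 0.130% to 0.252% in the other 23 Trap libraries and 4.03% to 6.14% in Input. Without it and male 7 weeks replicate 2, the calls among the 29 genes were as many in Trap against Input (28 lower and 1 higher) and 0 by state.

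The comparison of Trap with Input asked how far each synaptic gene was depleted from astrocyte ribosomes. Of the 29 genes, 28 were lower in Trap and 1, Gphn, was higher (edgeR quasi-likelihood test, Benjamini-Hochberg adjusted p under 0.05). Over all 15913 genes tested 43.6% were lower and 44.4% were higher. The median log2 difference, Trap minus Input, was -3.73 over the 29 genes and 0.02 over all genes. For 26 of the 29 every Trap library lay below every Input library. The remaining level was not uniform: it ran from 3.797% of Input for Slc32a1 to 79.3% for Vamp2 and 153% for Gphn, as ratios of the mean CPM.

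**Figure D1:**
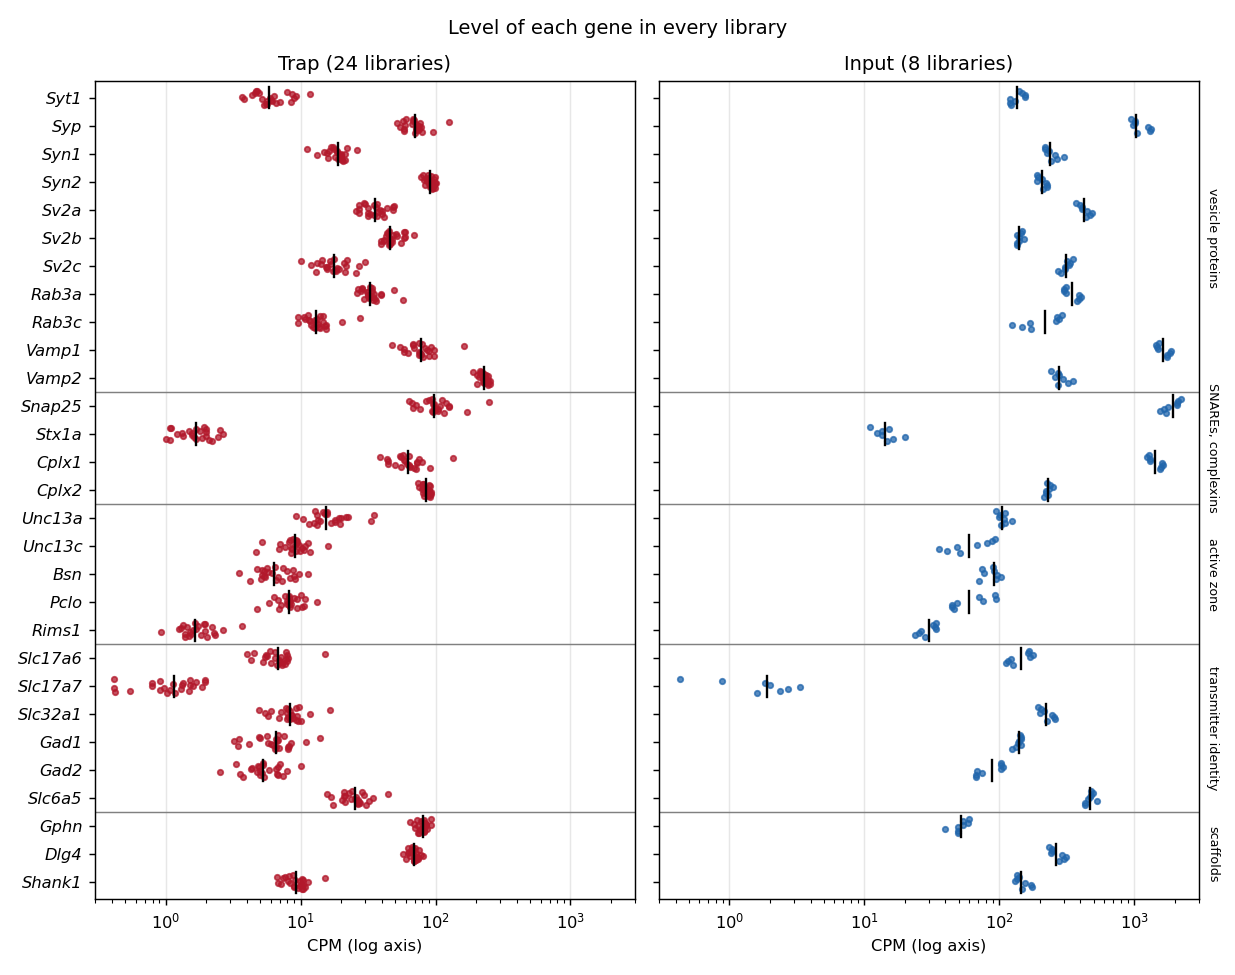
Level of the 29 genes in CPM on a log axis, with 1 point per library, the 24 Trap libraries in the left panel and the 8 Input libraries in the right panel; black ticks are medians and grey lines separate the roles. For 18 genes the mean in Trap is under 10% of that in Input, while Vamp2 and Slc17a7 overlap between the panels and Gphn lies further right in Trap.

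All 6 transmitter identity genes were lower in Trap, 5 of them by log2 differences between -4.72 and -3.97 and Slc17a7 by far less. Slc32a1, the vesicular transporter of GABA and glycine, had a lowest, median and highest level of 4.92, 8.37 and 16.6 CPM in Trap, against 192, 221 and 260 CPM in Input. No Trap library came near the Input range, and the log2 difference of -4.72 ± 0.108 (standard error) was the most negative of the 29 (adjusted p = 3.64e-26 by edgeR). Slc17a6, the vesicular glutamate transporter of most spinal excitatory neurons, had 4.004, 6.83 and 15.3 CPM in Trap, against 113, 146 and 177 CPM in Input, a log2 difference of -4.38 ± 0.120. Its remaining level was 4.75% of Input. The GABA-synthesising enzymes Gad1 and Gad2 were lower by log2 differences of -4.40 ± 0.134 and -3.97 ± 0.119, and the glycine transporter Slc6a5 by -4.21 ± 0.109. These 4 inhibitory genes kept 3.797% to 6.35% of their Input level.

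Slc17a7 encodes VGLUT1, which in the cord belongs mainly to terminals of primary afferents and of descending neurons whose cell bodies lie outside it. It was close to the limit of counting, with 7 to 39 estimated counts per Trap library and 12 to 91 per Input library. Its level was 0.413, 1.15 and 1.95 CPM (lowest, median, highest) in Trap, against 0.431, 1.91 and 3.36 CPM in Input, and the fractions overlapped. The log2 difference was -0.67 ± 0.240 (adjusted p = 0.0107 by edgeR). The call rested on males: the log2 difference was -1.25 ± 0.286 in males and 0.02 ± 0.320 in females (adjusted p = 0.949), and it was lost without the uninjured male Input library (-0.53, adjusted p = 0.0591). Within females 27 of the 29 genes were lower, where 41.8% of all genes were, and within males 28 were lower, where 41.4% were. In both sexes Gphn was the gene called higher.

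Vesicle proteins were lower in 11 of 11 cases, with a median log2 difference of -3.73 and a wide range. Syt1 had 3.67, 5.80 and 11.8 CPM (lowest, median, highest) in Trap, against 119, 136 and 156 CPM in Input (log2 difference -4.44 ± 0.110). Synaptophysin, Syp, a common vesicle marker, had 52.0, 70.7 and 125 CPM in Trap, against 943, 1036 and 1328 CPM in Input (-3.96 ± 0.0930). Each lay apart in all libraries, but several paralogs did not go with them. Vamp1, the synaptobrevin typical of the spinal cord and brainstem, kept 4.83% of its Input level. Its relative Vamp2 had 191, 227 and 255 CPM in Trap, against 242, 275 and 354 CPM in Input, where 18 of 24 Trap libraries lay below every Input library (-0.33 ± 0.0438, adjusted p = 2.65e-08). Vamp2 was thus lower in Trap by far less than Vamp1.

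Synapsins tether vesicles in the reserve pool. Syn1 had 11.1, 18.8 and 26.1 CPM in Trap, against 217, 239 and 303 CPM in Input (-3.73 ± 0.0781). Syn2 had 78.0, 91.5 and 101 CPM in Trap, against 190, 209 and 227 CPM in Input (-1.19 ± 0.0393). Both were lower without overlap, yet Syn2 kept 43.8% and Syn1 7.52% of the Input level. Syn2 is read with caution: 90 bases of its exons, 1.28% of their length, lie opposite exons of Timp4, which encodes a metalloproteinase inhibitor and was higher in Trap (log2 difference 3.02 ± 0.0678, with mean levels of 661 CPM in Trap and 81.8 CPM in Input), and whether strand was used in counting is not given in the sources used here. The SV2 glycoproteins are transporter-like vesicle proteins. Sv2a kept 8.37%, Sv2b 34.7% and Sv2c 5.78% of Input. Of the small GTPases that ride on vesicles, Rab3a kept 9.80% and Rab3c 6.42%. Rab3a shares 29 exon bases with Mpv17l2 on the other strand, a gene that was higher in Trap (2.64 ± 0.0946).

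Among the membrane SNAREs and complexins all 4 were lower. Snap25 had 63.8, 96.9 and 248 CPM in Trap, against 1565, 1934 and 2211 CPM in Input (-4.18 ± 0.154), and its highest Trap value was that of female 3 weeks replicate 3. Stx1a was a low gene in both fractions, with 1.02, 1.68 and 2.68 CPM in Trap and 11.02, 14.2 and 20.01 CPM in Input (-3.07 ± 0.0953). Complexins clamp and promote SNARE-driven fusion, and they behaved unequally. Cplx1 had 39.1, 62.1 and 136 CPM in Trap, against 1248, 1433 and 1631 CPM in Input (-4.49 ± 0.132), whereas Cplx2 had 74.5, 84.7 and 92.5 CPM in Trap, against 214, 229 and 251 CPM in Input (-1.44 ± 0.0386). Per kilobase of exon, Cplx1 stood at 29.4 and Cplx2 at 17.3 CPM in Trap, and at 658 and 46.6 CPM in Input.

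The active zone is the patch of presynaptic membrane where vesicles dock, and its 5 genes were lower with a median log2 difference of -2.91. Rims1, a scaffold that recruits calcium channels, kept 6.05% of Input and Bsn (Bassoon, a giant scaffold) 7.65%. Pclo (Piccolo, its relative) kept 13.05%. The vesicle-priming factors Unc13a and Unc13c kept 16.1% and 14.4%. Unc13a shares 495 exon bases with Colgalt1 on the opposite strand, which changed little between fractions (log2 difference -0.41 ± 0.0660).

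The postsynaptic scaffolds went in different directions. Shank1, a scaffold of excitatory synapses, had 6.71, 9.33 and 15.1 CPM in Trap, against 130, 144 and 176 CPM in Input (-3.99 ± 0.0759). Dlg4, which encodes PSD-95, had 57.4, 69.3 and 80.7 CPM in Trap, against 232, 262 and 313 CPM in Input (-1.96 ± 0.0447). Both were lower in every Trap library. Gphn encodes gephyrin, which clusters glycine and GABA-A receptors and also acts in molybdenum cofactor synthesis in many tissues. It had 64.3, 80.9 and 92.1 CPM in Trap, against 40.0, 52.1 and 60.0 CPM in Input. On the TMM scale every Trap library lay above every Input library (0.62 ± 0.0606, adjusted p = 3.11e-11 by edgeR). The TMM factors were 0.866 to 1.03 in Trap and 1.26 to 1.29 in Input. For a difference this small, its size and the lack of overlap depend on that scaling. Per kilobase of exon Gphn averaged 21.2 CPM in Trap and 13.9 CPM in Input. A non-coding gene on the other strand, Gm48226, shares 147 bases of Gphn exons and was also higher in Trap (0.96 ± 0.102).

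**Figure D2:**
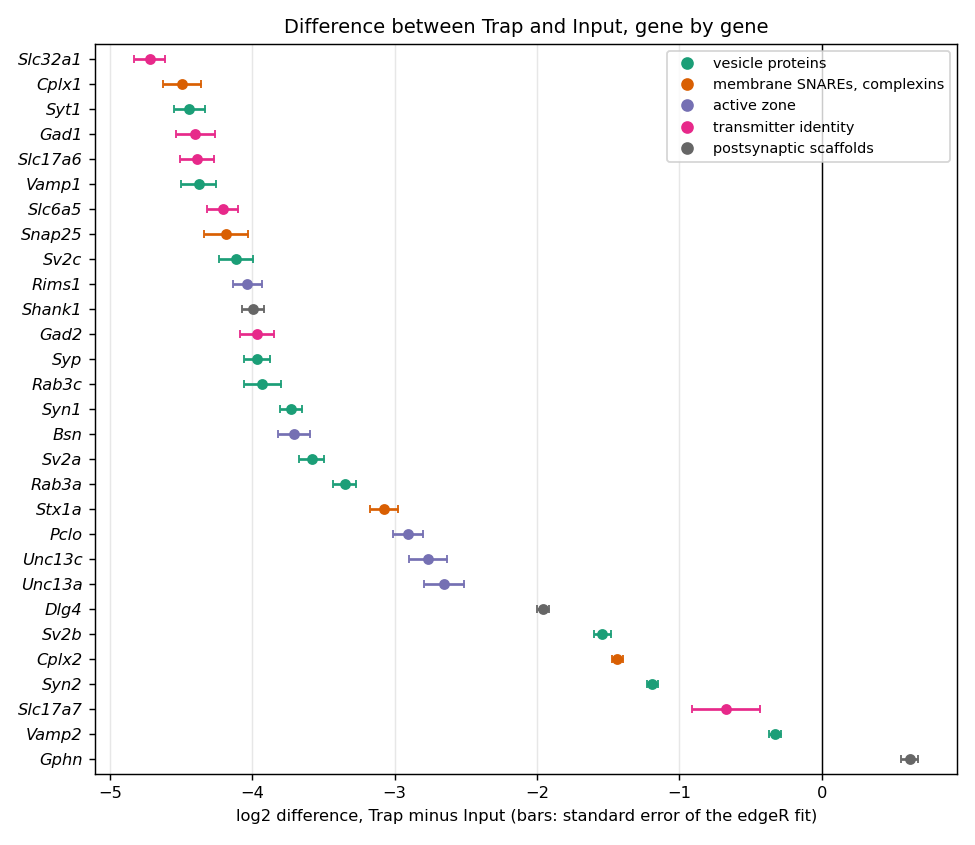
Log2 difference, Trap minus Input, for each of the 29 genes with the standard error of the fit, ordered from the most negative and coloured by role. The genes run from -4.72 for Slc32a1 to 0.62 for Gphn, with Vamp2, Slc17a7, Syn2, Cplx2, Sv2b and Dlg4 between -2 and 0.

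Pairs of genes were compared within libraries, since a ratio of 2 genes does not depend on how libraries are scaled. The log2 ratio was compared between Trap and Input by an exact 2-sided permutation within sex and state, for 15 pairs. P-values were adjusted over the pairs, and the smallest p possible is 1.53e-05. The permutation treats the libraries of a combination as exchangeable. Every Input library is numbered 1 and shares the stem of its column name with the number 1 Trap library. A pairing by number is thus ignored, and with such pairs alone the smallest p possible would be larger. For paralogs the differences of depletion were large. The ratio of Vamp1 to Vamp2 averaged -1.55 ± 0.334 in Trap and 2.53 ± 0.126 in Input on the log2 scale (SD, n = 24 and 8), a difference of -4.08 seen in 8 of 8 combinations of sex and state (adjusted p = 2.29e-05 by exact permutation). So Vamp1 was the synaptobrevin with more counts in Input and Vamp2 the one in Trap. Likewise, the ratio of Cplx1 to Cplx2 differed by -3.09, that of Syn1 to Syn2 by -2.55 and that of Sv2a to Sv2b by -2.05, each in 8 of 8 combinations and with the same adjusted p by exact permutation. Dlg4 was depleted more than Gphn (-2.58) and less than Shank1 (2.04), also in 8 of 8 combinations.

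The other pairs gave differences of both kinds. Stx1a was depleted less than Snap25 (difference of the log2 ratio 1.18), Sv2a less than Sv2c (0.55) and Bsn more than Pclo (-0.85), each in 8 of 8 combinations at the smallest p. Slc32a1 was depleted more than Slc6a5 (-0.50 ± 0.272, SD over the 8 combinations, adjusted p = 0.000146 by exact permutation) and Gad1 more than Gad2 (-0.46 ± 0.244, adjusted p = 0.00970 by exact permutation). The ratio of excitatory Slc17a6 to inhibitory Slc32a1 averaged -0.32 ± 0.223 in Trap and -0.65 ± 0.435 in Input (SD, n = 24 and 8), a difference of 0.33 in 6 of 8 combinations (adjusted p = 0.0128 by exact permutation). The sexes were unlike here. Without a prior count the ratio averaged -1.04 in male and -0.26 in female Input (n = 4 each). Male Input thus lay below the Trap mean of -0.32 and female Input near it. With replicate number 1 of each Trap group alone, Slc17a6 with Slc32a1 and Rab3a with Rab3c (0.56, in 6 of 8) were no longer called (adjusted p = 0.226 and 0.117 by exact permutation of the number 1 pairs). Rab3c also differed by sex in Input, with a mean of 153 CPM in males and 276 CPM in females, against 13.5 and 14.0 CPM in Trap. Unc13a and Unc13c did not differ in depletion beyond the spread (0.05 ± 0.609, 4 of 8 combinations, adjusted p = 0.814 by exact permutation), which is too wide to call them alike. The ratio of Slc17a6 to Slc17a7 differed by -3.83, with Slc17a7 near the limit of counting.

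The 24 Trap libraries also differed among themselves. The mean log2 CPM of the 20 other neuron markers was used as a measure of neuronal RNA in each Trap library, and each member was correlated with it across the 24 libraries, as a description: all values of a library share its depth and scaling. Slc32a1 had r = 0.93 (Spearman rho 0.85), Cplx1 0.92 (0.89), Vamp1 0.91 (0.88), Snap25 0.89 (0.89) and Syn1 0.82 (0.79). Without the 2 libraries farthest from the median of that measure, both female at 3 weeks, r was 0.86 for Slc32a1, 0.85 for Cplx1, 0.83 for Vamp1, 0.82 for Snap25 and 0.68 for Syn1. These genes were high in the same libraries, female 3 weeks replicate 3 first.

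Other members did not follow the neuron markers. Vamp2 had r = 0.28 (rho 0.31), Cplx2 0.40 (0.34), Syn2 0.12 (0.05), Sv2b 0.09 (0.13), Dlg4 0.07 (0.24), Unc13a -0.11 (-0.15) and Gphn -0.52 (-0.42). Without the 2 farthest libraries r was 0.28 for Vamp2, 0.29 for Cplx2, 0.00 for Syn2 and -0.39 for Gphn. Over all 24 libraries the 18 members under 10% of Input were the 18 with r over 0.5, and the 11 others had r under 0.5. Both limits were set after the values were seen, and without the 2 farthest libraries Gad2 (r = 0.48) and Shank1 (r = 0.49) also fell under 0.5. The nearest members on either side were Rab3a at 9.80% and Stx1a at 11.8% of Input, and Gad2 at r = 0.57 and Cplx2 at r = 0.40. In female 3 weeks replicate 3, 16 of the 29 genes exceeded 1.5 times the median of the other 23 Trap libraries. Snap25 was at 248 CPM in that library, against a median of 96.8 CPM in the other 23, and Slc17a6 at 15.3 CPM against 6.69 CPM, whereas Vamp2 was at 230 CPM against 226 CPM and Gphn at 64.3 CPM against 81.1 CPM. The same library had the highest mitochondrial share in Trap and the lowest astrocyte markers, and their part in these values was not tested.

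**Figure D3:**
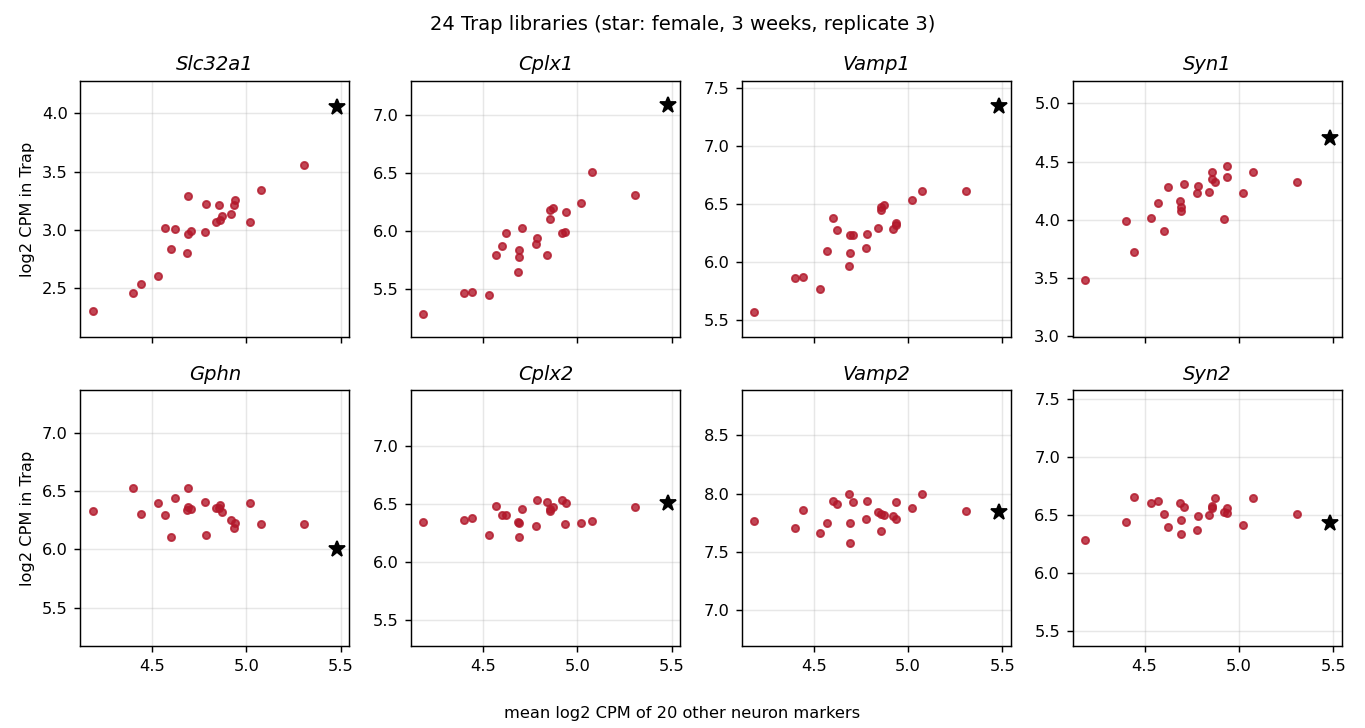
Log2 CPM of 8 genes in the 24 Trap libraries against the mean log2 CPM of 20 other neuron markers, on y axes of equal span; the star is female 3 weeks replicate 3. Slc32a1, Cplx1, Vamp1 and Syn1 climb with the markers (r from 0.82 to 0.93), and Gphn, Cplx2, Vamp2 and Syn2 do not (r from -0.52 to 0.40).

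Other genes of the synapse, grouped by function, are given beside the 29. Of 34 further presynaptic genes tested 32 were lower in Trap and 2 higher, with a median log2 difference of -3.13. Amph (amphiphysin, of vesicle endocytosis) was lower, with a log2 difference of -3.54 ± 0.0625. Those higher were Unc13b (1.14 ± 0.207), a priming factor related to Unc13a, and Syt12 (0.70 ± 0.0712). SNARE relatives with general trafficking roles were mixed: of 17 tested 9 were higher and 6 lower (median 0.16). Over all genes tested 44.4% were higher and 43.6% lower, so this mix is not read as a property of the group. Snap29 was higher by 1.34 ± 0.0509 and Vamp8 by 2.21 ± 0.0974, while Nsf, the ATPase that recycles SNAREs, was lower by -3.00 ± 0.0466 and Napg by -1.93 ± 0.0541. All 7 further transmitter identity genes that could be tested were lower (median -3.56), such as Slc18a3, the vesicular acetylcholine transporter of motor neurons (-3.82 ± 0.103), and Th, the rate-limiting enzyme of catecholamine synthesis (-4.10 ± 0.169). Th was near the limit of counting in Trap, at 0 to 0.481 CPM, against 1.59 to 3.33 CPM in Input. It passed the filter on low counts through its Input level, so its call carries little weight.

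Receptor genes and their partners were mixed, as the scaffolds were. Of 20 excitatory postsynaptic genes 14 were lower and 5 higher, and of 15 inhibitory ones 12 were lower and 2 higher. Over all genes tested 43.6% were lower and 44.4% higher. The kinase genes Camk2a (-3.91 ± 0.0737) and Camk2b (-2.72 ± 0.0444) and the receptor subunits Glrb (-2.75 ± 0.0513) and Gabra3 (-4.01 ± 0.0952) were lower in Trap. The AMPA receptor subunit Gria1 (1.81 ± 0.0649) and the scaffold Homer2 (1.43 ± 0.0786) were higher, as were the GABA-A receptor subunits Gabrb1 (2.03 ± 0.116) and Gabra2 (2.90 ± 0.230). Gabra2 averaged 577 CPM in Trap and 78.6 CPM in Input.

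The extent of depletion was then compared between states. None of the 29 genes differed in the Trap to Input difference at 3, 5 or 7 weeks after fracture from uninjured mice, and of all genes 0%, 0% and 0% were called (edgeR, fraction by state). At an unadjusted p under 0.05 there were 0 of the 29 genes at each time, and 315, 225 and 304 of all genes. DESeq2 also called 0 of the 29. The precision was modest, since each state has 2 Input libraries. The member with the smallest p at 7 weeks was Shank1, whose depletion was smaller by 0.41 ± 0.240 on the log2 scale (unadjusted p = 0.101 from the edgeR model). At 3 weeks it was Rab3c (0.47 ± 0.417) and at 5 weeks Sv2b (0.20 ± 0.187). Slc32a1 stood at log2 differences of -4.72, -4.67, -4.93 and -4.56 in uninjured, 3, 5 and 7 weeks, and Slc17a6 at -4.47, -4.24, -4.44 and -4.39. Gphn was higher in Trap in each state, by 0.57, 0.71, 0.56 and 0.63.

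Depletion was also compared between the sexes, a comparison added after the data were seen because male and female Input libraries stood apart. In males 3 of the 29 genes had a less negative Trap to Input difference and 1 a more negative one (10.3% and 5.47% of all genes). The 3 were Pclo (difference of 0.69 ± 0.181, adjusted p = 0.00859 by edgeR), Rab3c (0.81 ± 0.238) and Unc13c (0.87 ± 0.233), and the 1 was Slc17a7 (-1.27 ± 0.426). Trap levels of these genes were close between the sexes. Pclo had 4.77 to 10.6 CPM in male and 6.34 to 13.2 CPM in female Trap libraries, but 48.7, 44.9, 44.4 and 46.2 CPM in male Input libraries (uninjured, 3, 5 and 7 weeks), against 92.3, 71.0, 94.3 and 75.4 CPM in female ones. For Pclo the sexes overlapped in Trap and not in Input. For Slc17a7 they overlapped in Input, with 1.62 to 3.36 CPM in males and 0.431 to 2.00 CPM in females. Without the filter on low counts, and by DESeq2, Slc17a7 was no longer called.

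The excitatory and inhibitory genes were compared in Input by state of injury, which asked whether the tissue's transmitter genes shifted with fracture. In whole tissue, fewer cells of a type and less RNA per cell cannot be told apart. With the mean CPM per kilobase of exon over the 8 Input libraries, Slc32a1 (80.3) and Slc6a5 (65.1) stood above Slc17a6 (26.8), Gad1 (18.2), Gad2 (14.8) and Slc17a7 (0.353). None of these 6 genes was called at any time. Of the 29 genes 1 was called at 3 weeks, where 1.08% of all 16803 genes tested were, 0 at 5 weeks (0.107% of all genes) and 0 at 7 weeks (0.214%). At an unadjusted p under 0.05 there were 8, 5 and 1 of the 29. The share of all genes under that limit is not given here, so these counts are not read as a shift of the members. DESeq2 called 0 of the 29 at each time.

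Slc17a6 had 123, 116, 113 and 127 CPM in male Input (uninjured, 3, 5 and 7 weeks) and 166, 165, 177 and 170 CPM in female Input. Within a sex the values lay close together, and the fitted log2 differences from uninjured were -0.06 ± 0.0628 at 3 weeks, -0.02 ± 0.0630 at 5 weeks and 0.05 ± 0.0631 at 7 weeks. Slc32a1 had 247, 254, 260 and 228 CPM in male and 192, 203, 214 and 199 CPM in female Input, with log2 differences of 0.04 ± 0.0537, 0.12 ± 0.0538 and -0.02 ± 0.0541 (unadjusted p = 0.0474 at 5 weeks and adjusted p = 0.587, from edgeR). Gad1 differed by 0.04, 0.00 and -0.07 and Gad2 by 0.05, 0.02 and 0.01 at 3, 5 and 7 weeks, each with a standard error of 0.0571 to 0.0645. Slc6a5 had 454, 527, 429 and 430 CPM in male and 476, 493, 476 and 468 CPM in female Input, highest at 3 weeks in both sexes, and differed by 0.12 ± 0.0551, -0.04 ± 0.0552 and -0.04 ± 0.0553, and Slc17a7 by -0.06 ± 0.602, 0.21 ± 0.599 and -0.02 ± 0.634, which is uninformative at its level. Except for Slc17a7, then, the fitted differences over both sexes stayed within 0.12 on the log2 scale. Within a sex, where 1 library is set against 1, the values ran wider, to 0.22 for Slc6a5 in males at 3 weeks, 0.16 for Slc32a1 in females at 5 weeks, -0.14 for Gad1 in males at 7 weeks and -0.13 for Slc17a6 in males at 5 weeks.

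**Figure D4:**
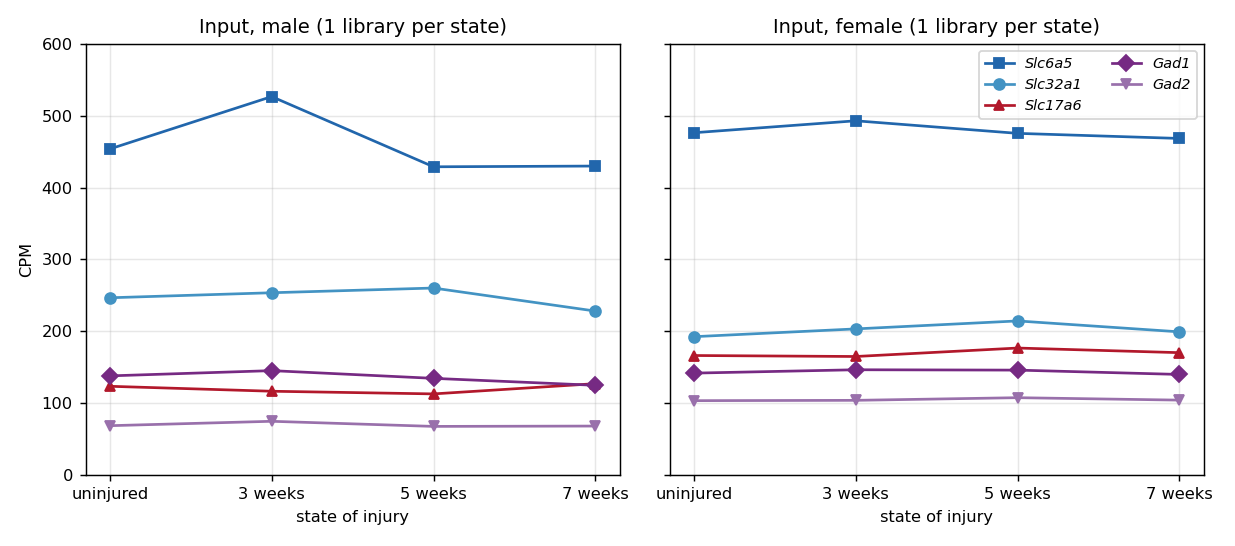
CPM of the transmitter genes Slc6a5, Slc32a1, Slc17a6, Gad1 and Gad2 in Input by state of injury, males in the left panel and females in the right panel, with 1 library per point and no error bar because there is no replicate within sex and state. Slc6a5 in males peaks at 3 weeks (527 CPM, against 429 to 454 CPM in the other states), and Slc17a6 and Gad2 lie lower and Slc32a1 higher in the males; lengths differ between genes, so lines are compared within a gene.

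The ratio within a library gave the same picture by state. The log2 ratio of Slc17a6 to Slc32a1 was -1, -1.12, -1.21 and -0.85 in male Input (uninjured, 3, 5 and 7 weeks) and -0.21, -0.30, -0.28 and -0.23 in female Input. Its range over the 4 states was 0.36 in males and 0.09 in females, smaller than the gap between the sexes. That gap depended on the inhibitory gene. With Gad2 the ratio ran from 0.64 to 0.90 in males and from 0.67 to 0.72 in females, with overlap. Males lay below females with Gad1 (-0.32 to 0.03, against 0.17 to 0.28) and Slc6a5 (-2.18 to -1.76, against -1.58 to -1.43). The longest transcripts of Slc17a6 and Slc32a1 hold 42.9% and 61.9% GC, and the part of GC content in this gap was not tested. These ratios are given as a description, with no test. In the 24 Trap libraries the ratio of Slc17a6 to Slc32a1 ran from -0.85 to 0.00 with a median of -0.33, and the sexes overlapped there.

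**Figure D5:**
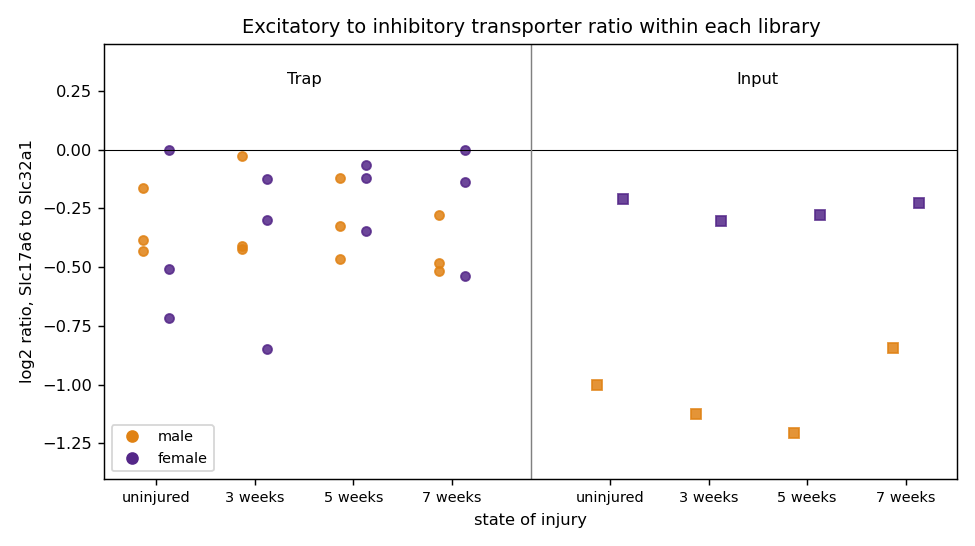
Log2 ratio of Slc17a6 to Slc32a1 within each library by state of injury, the 24 Trap libraries on the left and the 8 Input libraries on the right, coloured by sex. In Input the 4 male libraries (-1.21 to -0.85) lie below the 4 female libraries (-0.30 to -0.21) in every state, and in Trap the sexes mix.

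Stx1a was the member called in Input at 3 weeks. It had 13.5, 20.01, 16.3 and 14.9 CPM in male Input (uninjured, 3, 5 and 7 weeks) and 11.02, 15.3, 13.6 and 12.4 CPM in female Input, highest at 3 weeks in both sexes. The log2 difference from uninjured was 0.51 ± 0.106 (adjusted p = 0.0276 by edgeR), and by single libraries it was 0.57 in males and 0.47 in females. DESeq2 gave 0.49 with an adjusted p of 0.0794, the fit without the sex term gave 0.51 with an adjusted p of 1, and leaving out 1 Input library ended the call in 6 of 8 cases, with values from 0.46 to 0.55. Input differences at 3 weeks went with the GC content of the transcript (Spearman rho 0.35 over 16670 genes), and relative to genes of like GC content Stx1a differed by 0.44. In Trap, Stx1a had a lowest, median and highest level of 1.63, 1.99 and 2.55 CPM at 3 weeks, against 1.08, 1.28 and 1.91 CPM in uninjured mice, with overlap and no call (0.57 ± 0.234, unadjusted p = 0.0218 and adjusted p = 0.455 from edgeR). Its Trap libraries hold 18 to 57 counts of the gene.

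Of the postsynaptic scaffolds in Input, Gphn had 40.0 and 54.2 CPM in the male and female libraries at 3 weeks, against 49.9 and 60.0 CPM in the uninjured ones (-0.24 ± 0.0797, unadjusted p = 0.00697 and adjusted p = 0.163 from edgeR). Dlg4 differed by 0.08 ± 0.0522, 0.08 ± 0.0524 and 0.00 ± 0.0525 and Shank1 by 0.09 ± 0.0601, 0.09 ± 0.0604 and -0.05 ± 0.0609 at 3, 5 and 7 weeks. None of these passed the test.

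In Trap by state none of the 29 genes was called at 3, 5 or 7 weeks, with 0.111%, 0% and 0% of all 15380 genes called. At an unadjusted p under 0.05 there were 2, 1 and 1 members, without a share of all genes to set them against, and DESeq2 called none of the 29. Shank1 was the member with the smallest p at 5 and 7 weeks. It had 6.78, 7.99 and 8.84 CPM (lowest, median, highest of 6) in uninjured Trap libraries, 6.71, 9.49 and 15.1 CPM at 3 weeks, 8.87, 10.03 and 10.7 CPM at 5 weeks and 8.09, 10.1 and 11.4 CPM at 7 weeks. The log2 differences from uninjured were 0.33 ± 0.150, 0.33 ± 0.150 and 0.35 ± 0.150, with unadjusted p-values of 0.0393, 0.0354 and 0.0297 from the edgeR model and adjusted ones of 0.544, 1.00 and 1.00. At 5 weeks each of its 6 libraries lay above the 6 uninjured ones. All 3 comparisons share the uninjured libraries.

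Between the sexes the fractions behaved differently. In Trap 0 of the 29 genes were called (0.195% of all genes), and Sv2b had the smallest p (-0.22 ± 0.0686, adjusted p = 0.252 from edgeR). There, 3 had an unadjusted p under 0.05, again without a share of all genes beside the count. In Input 12 of the 29 were higher and 13 lower in males, where 22.9% and 23.3% of all genes were higher and lower. The most lowered in Input was Unc13c (-0.96 ± 0.166), followed by Rab3c (-0.90 ± 0.0730), Pclo (-0.89 ± 0.0638), Gad2 (-0.63 ± 0.0455) and Slc17a6 (-0.54 ± 0.0447). Rims1 (-0.41), Snap25 (-0.38), Gphn and Syt1 (each -0.31), Sv2c (-0.22), Cplx2 (-0.13), Gad1 (-0.12) and Slc6a5 (-0.10) were also lower. Those higher ranged from 0.14 for Syn2 to 0.30 for Rab3a, with Slc32a1 at 0.25 ± 0.0381, Dlg4 at 0.26 ± 0.0371 and Cplx1 at 0.27 ± 0.0322. Vamp1, Vamp2, Syp, Sv2a, Syn1, Stx1a and Shank1 were the other members that were higher.

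These Input differences went with base composition. Over 16670 genes the male minus female difference had a Spearman rho of 0.66 with the GC content of the longest transcript and of -0.36 with its length, and over the 29 genes the values were 0.63 and -0.57. When genes were split into 4 equal groups by GC content, the group of lowest GC had a median difference of -0.43 and that of highest GC 0.24. Relative to genes of like GC content the differences were -0.21 for Slc17a6, -0.37 for Gad2, -0.02 for Slc32a1, -0.46 for Rab3c, -0.71 for Pclo and -0.78 for Unc13c, and Snap25 changed sign to 0.36. The male and female Input columns also carry differently styled names in the table, and sex and whatever that naming reflects cannot be told apart with these libraries. The number 1 Trap columns are named with the same split by sex. Among them 37 of 14840 genes and 0 of the 29 were called between the sexes by edgeR. Number 2 Trap libraries gave 161 of 14981 genes and 4 of the 29, and number 3 gave 10 of 15157 and 0. The part of base composition in the differences of single genes was not tested.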

How the data were processed

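The authors deposited 1 table of RSEM estimated counts (expected counts) for 55938 Ensembl genes in 32 libraries, in which 6.21% to 8.53% of a library's values were not whole. Per the labels, libraries were made from poly-A-selected RNA. Per the submitters' processing notes, FastQC, Trim Galore, STAR, RSEM and GRCm38 were used; versions, annotation release and strand setting are not given in the sources used here. Estimated counts were rounded to whole numbers. Genes without a symbol (797) held 0.301% of counts and stayed in. RSEM divides reads among similar genes, so paralogs and overlapping exons are uncertain; overlaps were taken from GENCODE M21 (GRCm38).

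The fits were made in R 4.3.3 with edgeR 4.0.16 on all genes (low counts removed by filterByExpr, TMM scaling, robust glmQLFit with legacy mode off, 2-sided glmQLFTest), with Benjamini-Hochberg adjustment and a call at an adjusted p under 0.05. Trap against Input used 32 libraries with a mean per sex and state (15913 genes), to which fraction by state or by sex was added. Input used 8 libraries with sex as an additive term (16803 genes, 3 residual degrees of freedom) and Trap 24 libraries (15380 genes, 16 residual degrees of freedom). Folds are log2 ± standard error. The 15 pair tests used within-library ratios with a prior count of 2; the ratios by state used none. DESeq2 1.42.0 was the alternative test. Depth limits genes near 1 CPM, such as Slc17a7, to few counts per library. The fits were checked on simulated counts.

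Every one of the 29 genes is named in Trap against Input. Elsewhere the members called are named, or up to 4 with the smallest p where none was, and in Input the 6 transmitter genes and the scaffolds always. From each other list at most 2 genes each way with the smallest p are named. One gene that this rule picked is not reported here. The 29 genes, the lists and the tests were chosen with earlier results of these data known. The alternatives tried were scaling by size factors, testing every gene with a count, the DESeq2 test, leaving out libraries, the replicate number as a block, only the groups compared and other prior counts; fits by sex, ratios to other inhibitory genes and differences relative to 20 bins of GC content were added after the data were seen.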

Additional observations from a re-analysis of the deposited data

Results flagged for a closer look

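In 174 groups, each of the 6 Trap libraries of a state or the 4 Input libraries of a sex, the highest or lowest value was set against the others. In 9 of them a value stood apart, where chance gives about 1 in 20. Trap female 3 weeks replicate 3 was the highest of the 6 Trap libraries at 3 weeks for Syt1 (11.8 CPM, others 4.56 to 6.15), Syp (125.0 CPM, others 57.7 to 75.4) and Snap25 (248 CPM, others 63.8 to 105). Trap male 3 weeks replicate 3 was the highest for Unc13a (33.1 CPM, others 14.0 to 18.1). Trap male uninjured replicate 3 was the lowest for Rims1 (0.929 CPM, others 1.60 to 1.95) and Trap female 5 weeks replicate 2 for Gad1 (3.51 CPM, others 6.57 to 8.25). Among the 4 male Input libraries that of 3 weeks was the highest for Gad2 (74.5 CPM, others 67.4 to 68.4) and the lowest for Gphn (40.0 CPM, others 49.2 to 49.9). Among the 4 female Input libraries the uninjured one was the highest for Snap25 (2211 CPM, others 2088 to 2100).

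The Trap to Input difference was tested between males and females and differed for 4 of the 29 genes: Pclo by 0.69, Rab3c by 0.81, Unc13c by 0.87 and Slc17a7 by -1.27 on the log2 scale, male minus female. Over all genes 10.3% differed in the positive and 5.47% in the negative direction, so the members' share is near the background. The Slc17a7 call was lost without the filter on low counts and by DESeq2.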

How the results depend on the processing

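Of the 29 genes 27 to 28 were lower in Trap when 1 Input library was left out, and the counts by state in Trap and in depletion were 0 in every alternative run. Over both sexes, Trap libraries of the same number had a median r of 0.0135 (84 pairs, 7 over 0.1). All 7 were among the 36 pairs of the same sex, whose median r was 0.0605. Of 168 pairs with other numbers 7 were over 0.1, and their median r was -0.0047. The number may thus tie libraries within a sex, and a block by number within each sex was not tested. With the replicate number as a block over both sexes 0 members were called in Trap. With the number 1 libraries as the replicate block, depletion by state turned sign for Rims1 (-0.089) and Shank1 (-0.15) at 3 weeks and Stx1a (-0.55) at 7 weeks, and the pairs Slc17a6 with Slc32a1 (0.26), Rab3a with Rab3c (0.56) and Unc13a with Unc13c (-0.069) were not called. Members with a more negative depletion in males were 0 without a filter and by DESeq2. In Input at 3 weeks, members called higher were 0 by DESeq2 and 0 without the sex term. Signs turned near 0 for Gad1 at 5 weeks (-0.0070 with size factors, -0.0072 by DESeq2), Dlg4 at 7 weeks (-0.0018 without a filter) and Slc17a7 by DESeq2 (0.080 at 3 weeks, 0.45 at 7 weeks); Slc17a7 in Trap against Input was 0.023 in females. Relative to genes of like GC content, Input values turned sign for Slc17a6 (0.035), Slc32a1 (-0.056) and Shank1 (-0.013) at 3 weeks, for Slc17a6 (0.067), Slc32a1 (-0.0042) and Shank1 (-0.029) at 5 weeks, and between the sexes for Syn1 (-0.012), Snap25 (0.36), Slc32a1 (-0.024) and Shank1 (-0.050). The range of the ratio of Slc17a6 to Slc6a5 over states was 0.42 in males and 0.15 in females. Leaving out 1 Input library gave 0 to 2 members higher and 0 to 1 lower at 3 weeks, and 11 to 14 higher and 9 to 13 lower between the sexes. The values then ran at 3 weeks from -0.016 to 0.11 for Gad2, from -0.65 to 1.73 for Slc17a7 and from -9.5e-05 to 0.088 for Slc32a1. At 5 weeks they ran from -0.024 to 0.030 for Gad1, -0.036 to 0.070 for Gad2, -0.12 to 0.075 for Slc17a6, -0.40 to 1.97 for Slc17a7 and -0.10 to 0.014 for Slc6a5. At 7 weeks they ran from -0.051 to 0.058 for Dlg4, -0.17 to 0.043 for Gphn, -0.014 to 0.11 for Slc17a6, -0.74 to 1.76 for Slc17a7 and -0.074 to 0.029 for Slc32a1. The cause of these changes was not tested. Input has 1 library per sex and state, which limits what can be seen there.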
